A study of Mus musculus with 22 samples.

Results

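The response of the male liver to repeated growth hormone (GH) was read from 2 of the 22 two-colour arrays, namely every array that set liver RNA of hypophysectomised (Hypox) males given 2 GH injections against liver RNA of untreated Hypox males. The mice were of the ICR strain and 8 weeks old. All mice of these 2 arrays had lost the pituitary gland, so neither side of the comparison had pituitary hormones of its own. The treated males received their injections 4 h apart and were killed 30 min after the last one. Each treated pool held RNA of 4 of 8 mice. Each untreated pool held 5 mice of a group of 6, so the 2 untreated pools must have mice in common, and the spread between the arrays understates that of the control group. In replicate 1 the treated pool carried the green dye and the untreated pool the red dye, and replicate 2 had the dyes the other way round. Both arrays lay on 1 slide. For comparison, males killed 30 or 90 min after a single injection and females killed 30 min after the last of 2 injections were each set against untreated Hypox mice of their own sex on 2 further arrays. Sham-operated mice, also 8 weeks old, kept the pituitary. Arrays that set sham males against sham females, and untreated Hypox males against sham males, are used further below. All values below are log2 ratios of treated over Hypox, given as the mean of both arrays ± the SE of a limma fit to all 22 arrays, and p values are adjusted by the Benjamini-Hochberg method over all genes tested.

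GH binds its receptor on hepatocytes and activates the kinase JAK2, which phosphorylates the transcription factor STAT5B. STAT5B induces Igf1, the growth factor that carries much of the effect of GH on the body, Igfals, which holds circulating IGF1 in a stable complex, and the inhibitors Cish and Socs2, which damp the signal. Secreted proteins such as these enter the endoplasmic reticulum (ER), where chaperones such as Hspa5 (BiP) fold them, and reach the Golgi in coated vesicles.

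The arrays first had to be read for RNA of other tissues. Of 31 exocrine pancreas genes tested, the median was 0.26 on replicate 1 and 3.33 on replicate 2, and that of 27 skeletal muscle genes was -0.03 and 2.42. The signal of the lipase Pnlip was 127 in the treated pool and 66.9 in the Hypox pool on replicate 1, against 11100 and 468 on replicate 2. The myosin Myh4 read 65.6 and 76.5 on replicate 1 and 7890 and 350 on replicate 2. The summed pancreas signal was 6890 (treated) and 4170 (Hypox) on replicate 1 and 125000 and 9850 on replicate 2, and the summed muscle signal 4470 and 4250, then 71400 and 8430. Thus the treated pool of replicate 2 held clearly more of both kinds of RNA than the other 3 pools. The insulin gene Ins1 was not well above background in any of these pools. The 3 lists of pancreas and muscle genes were left aside when genes were chosen for naming. Hepatocyte genes were bright in all 4 pools, but the albumin gene Alb went opposite ways on the 2 arrays (-0.79 and 0.68). On both arrays Alb read higher in the red channel, and the part of the dyes was not tested. The Y-linked genes Ddx3y, Eif2s3y, Kdm5d and Uty were well above background in every pool, whereas Xist was not in any.

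**Figure D1:**
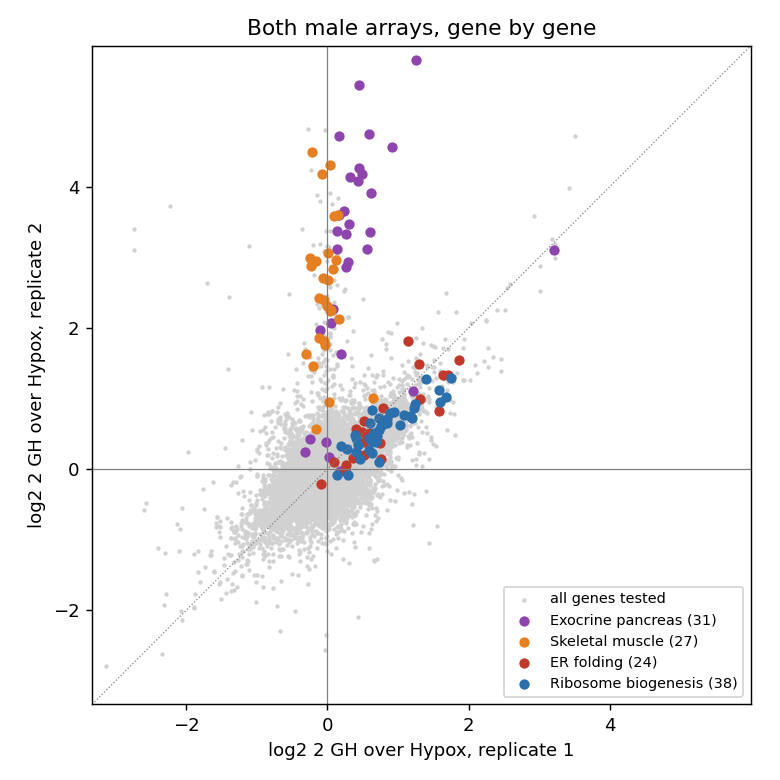
Log2 ratio of 2 GH over Hypox on replicate 1 (x axis) and replicate 2 (y axis) for each gene tested (grey points), with members of 4 gene lists in colour and the number tested in parentheses. Pancreas and muscle genes lie mostly along the vertical axis, with list medians of 0.26 and -0.03 on replicate 1 against 3.33 and 2.42 on replicate 2, whereas ER folding and ribosome biogenesis genes lie near the diagonal.

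A total of 5049 of 26191 genes (19.3%) passed the test with both arrays in the same direction, 2770 of them higher (10.6%) and 2279 lower (8.7%) after GH. Of these, 849 rose (3.24%) and 585 fell (2.23%) by at least 1.5-fold, 1434 in all (5.48%). The median over all genes tested was -0.01, and the 2 arrays correlated across genes at r = 0.53, as a description, since genes are not independent. Without replicate 1 the count was 1609 and without replicate 2 it was 2864. With each array centred on its median in place of the loess normalization, 454 genes passed, 321 higher and 133 lower. Of 144 genes named by the rule and called, 69 lost the call without replicate 1, 43 without replicate 2 and 77 with median centring.

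Igf1 and Igfals, which encode parts of the circulating IGF1 complex, rose. The Igf1 probe read 26500 and 24600 in the Hypox pools of replicates 1 and 2 and 70700 and 49700 in the treated pools. The treated and untreated pools did not overlap. The change was 1.22 ± 0.16, or 2.32-fold (adjusted p = 0.00027), and with median centring the adjusted p was 0.081. Igfals read 665 and 546 in Hypox pools and 2080 and 1790 after GH, again without overlap. It rose 3.19-fold (1.68 ± 0.10, adjusted p = 4.7e-06). The prolactin receptor gene Prlr, the third member of the list to rise, reached 0.89 ± 0.27 (adjusted p = 0.036), and the call was lost without either array (adjusted p = 0.16 without replicate 1 and 0.34 without replicate 2). Among the 15 genes of the IGF axis tested, 3 rose and none fell, and the list median was -0.02. The share called was 20%, near the 19.3% of all genes. The third part of the complex, Igfbp3, was at -0.05, and the GH receptor Ghr at -0.02 (adjusted p = 0.91). Igfbp1, a binding protein that insulin and feeding lower, was at -1.53 and -1.61 on the 2 arrays but had an SE of 0.68 in the fit and did not pass (adjusted p = 0.14).

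The feedback inhibitors of the receptor had the largest response of the signalling genes. Socs2 read 1060 and 958 in Hypox pools and 9650 and 9180 after GH. Cish read 1460 and 1270 in Hypox pools and 13600 and 10200 after GH. For both genes every treated pool was well above every Hypox pool. Socs2 rose 9.32-fold (3.22 ± 0.39, adjusted p = 0.00013) and Cish 8.63-fold (3.11 ± 0.68, adjusted p = 0.0061; 0.16 without replicate 1). Of 23 genes of GH signalling and feedback, 3 rose and 1 fell (17.4% called, against 19.3% of all genes), with a median of 0.00. The third to rise was Ptpn11, which encodes the phosphatase SHP2 (0.35 ± 0.06, adjusted p = 0.0012), but with the mean of its 2 probes it did not pass (adjusted p = 0.31). The gene to fall was Stat5b itself (-0.86 ± 0.20, adjusted p = 0.0080). A dimmer second Stat5b probe was at -0.15, and without replicate 1 or 2 the call was lost (adjusted p = 0.14 and 0.074). Socs1, another inhibitor of the family, was at 0.47 (adjusted p = 0.57).

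**Figure D2:**
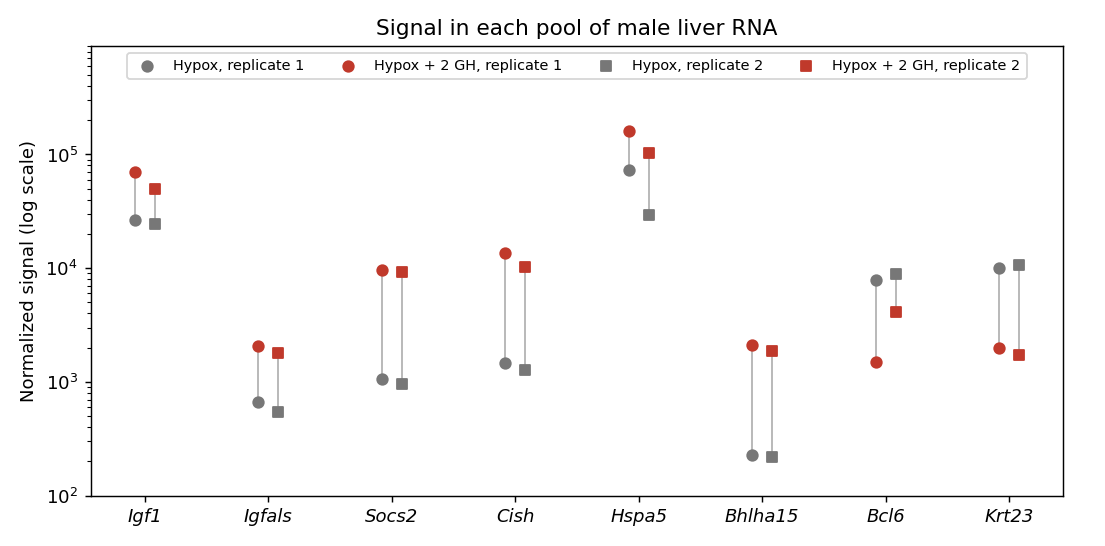
Normalized signal (log scale) of 8 genes in the 2 Hypox pools (grey) and the 2 pools after 2 GH injections (red); circles are replicate 1, squares replicate 2, and a line joins the pools of 1 array. For the 6 genes on the left both treated pools lie above both Hypox pools, and for Bcl6 and Krt23 both lie below.

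Transcription factors known to respond to GH or to shape sex differences in liver changed in both directions, 5 of 17 higher and 4 lower (median 0.01). The share called was 52.9%, against 19.3% of all genes. Bcl6, a repressor that competes with STAT5 at its sites, fell in both treated pools, from 7830 to 1490 on replicate 1 and from 8910 to 4110 on replicate 2. The fall was larger on replicate 1 (-2.40) than on replicate 2 (-1.12), and the mean was -1.76 ± 0.28 (adjusted p = 0.00072; 0.059 without replicate 1). Tox, which encodes an HMG box factor, fell from 819 to 355 and from 843 to 354 (-1.23 ± 0.15, adjusted p = 0.00013). The nuclear receptor gene Nr1i3 (CAR; -1.06, adjusted p = 0.0054) also fell. Onecut1, which encodes HNF6, rose from 2110 to 4720 and from 1860 to 3440 (1.02 ± 0.22, adjusted p = 0.0063). The oestrogen receptor Esr1 (0.95), Foxa1 (0.79), Hnf4a (0.38) and Cebpa (0.35) completed the rises. A dimmer Esr1 probe was at 0.21. Without replicate 1 the calls of Nr1i3 and Onecut1 (adjusted p = 0.22 for both) and Foxa1 (0.07) were lost. The female-enriched repressor Cux2 was dim in all 4 pools, between 80 and 99.2, and did not pass (-0.19, adjusted p = 0.42).

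Letters of the STAT5 type, TTCNNNGAA, which read the same on both strands, were looked for in the RefSeq promoters (GRCm38.p6), which hold the 250 bases before and the 50 after each start. A match occurred in 9.55% of 27025 genes, in 8.87% of the genes called higher and in 8.14% of those called lower. Bcl6 was one of 10 genes with 3 matches in 1 promoter, which lies before the second of its 2 listed starts. Igfals had 1 match in the promoter of each of its listed starts, of which the first is shown, and Cish had 2 from its start onward. Igf1 had 0 matches, which says only that these letters are absent from these windows. The stretches of Bcl6 (chr16:23981338-23981476, minus strand) and Igfals (chr17:24877594-24877641, plus strand) are given 5′ to 3′ with the matches in capitals, since both genes belong to the groups just described.
Bcl6: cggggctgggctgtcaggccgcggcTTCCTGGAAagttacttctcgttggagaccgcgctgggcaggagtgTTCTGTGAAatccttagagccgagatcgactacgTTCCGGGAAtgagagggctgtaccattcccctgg
Igfals: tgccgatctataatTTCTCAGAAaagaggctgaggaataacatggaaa

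The genes of protein folding in the ER rose together. Of 24 tested, 19 passed as higher (79.2%, against 10.6% of all genes) and none as lower, with medians of 0.56 on replicate 1 and 0.47 on replicate 2. Hspa5, the main HSP70 chaperone of the ER, read 72500 and 29500 in Hypox pools and 160000 and 104000 after GH. Both treated pools exceeded both Hypox pools, although the Hypox pools themselves were far apart. It rose 2.79-fold (1.48 ± 0.20, adjusted p = 0.00030). Manf, a secreted ER stress factor, had the largest change of the list (14300 and 13200 against 52300 and 38700; 1.71 ± 0.24, adjusted p = 0.00037). Sdf2l1 (1.52), a partner of Hspa5, Creld2 (1.49), the J-domain cochaperones Dnajb9 (1.39) and Dnajb11 (1.15) and the nucleotide exchange factor Hyou1 (1.2) followed, then the disulfide isomerase Pdia6 (0.82). The calls for Sdf2l1 and Hyou1 were lost without replicate 1 (adjusted p = 0.15 and 0.25), as was that for Pdia6 (0.12; 0.062 without replicate 2). The remaining 11 genes that rose lay between 0.32 and 0.60. Calnexin, Canx, was at 0.16 (adjusted p = 0.14). Without replicate 2, the array with pancreas and muscle RNA, 11 members passed, and without replicate 1 there were 6. With median centring 7 passed. Pancreas genes moved with these arrays (24 of 31 called higher, list medians 0.26 and 3.33), and their part in the rise of the ER folding list was not tested.

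The ER stress response element, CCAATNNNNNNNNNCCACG, is the site through which ATF6 and XBP1 are known to induce ER chaperones. On either strand, it was found in 0.137% of 27025 genes with a promoter in the table, but in 8 of 21 genes (38.1%) of the ER folding list. That share describes the list, whatever its response to GH. Of the 20 genes tested that hold it, 10 were called higher and none lower (50%, against 13.7% of all tested genes with a promoter), and their median was 0.47. Most of these 10 (Creld2, Hspa5, Pdia6, Ero1b, Calr, Hsp90b1 and Dnajc3) belong to the ER folding list, so the 50% is not separate from the rise of that list. The others were Syvn1 (1.28), which encodes the ubiquitin ligase of ER-associated degradation, the mannosyltransferase gene Alg12 (0.85) and the RNA-binding protein gene Hnrnpa3 (0.56). The genes that hold it and did not pass included Canx (0.16) and Derl3 (0.08). In no promoter of the ER entry, ER-Golgi transport or ribosome biogenesis lists was the element found, which says only that these letters are absent from these windows. The stretches that hold it are shown for 5 genes that rose, with the element in capitals, read on the gene's strand.
Hspa5 (chr2:34772000-34772068, plus strand): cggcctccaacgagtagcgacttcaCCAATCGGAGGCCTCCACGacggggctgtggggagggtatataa
Creld2 (chr15:88819495-88819563, plus strand): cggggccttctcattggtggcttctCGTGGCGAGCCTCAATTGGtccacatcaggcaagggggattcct
Syvn1 (chr19:6046507-6046575, plus strand): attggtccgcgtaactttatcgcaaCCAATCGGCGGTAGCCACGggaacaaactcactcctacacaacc
Pdia6 (chr12:17266466-17266534, plus strand): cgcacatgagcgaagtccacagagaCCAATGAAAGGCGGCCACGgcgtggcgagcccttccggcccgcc
Hsp90b1 (chr10:86705508-86705681, minus strand): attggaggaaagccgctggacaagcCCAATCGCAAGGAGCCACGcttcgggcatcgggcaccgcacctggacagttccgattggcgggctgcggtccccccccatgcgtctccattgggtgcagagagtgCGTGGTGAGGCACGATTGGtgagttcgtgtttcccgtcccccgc
In Creld2 and in the second match of Hsp90b1 the element lies on the opposite strand. Hsp90b1, the ER form of HSP90, holds it in both orientations and rose by 0.48 (adjusted p = 0.0092).

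The steps before and after folding rose as well. In the 3 lists, 75% to 77.8% of genes were called, all higher, against 10.6% of all genes called higher. In the list of ER entry and N-glycosylation 18 of 24 genes rose and none fell (median 0.56), led by the signal recognition particle gene Srp68 (1.02), the translocon-associated Ssr1 (0.95), the oligosaccharyltransferase subunits Ostc (0.89) and Rpn1 (0.86) and the channel gene Sec61a1 (0.69). In ER-associated degradation 14 of 18 rose and none fell (median 0.33), with Syvn1 at 1.29 and 1.26 on the 2 arrays, Ubxn4 at 0.93 and the ubiquitin-conjugating enzyme gene Ube2g2 at 0.81. A second Syvn1 probe of low signal (128 to 134) was at 0.03. In transport between ER and Golgi 23 of 30 rose and none fell (median 0.47). Here the COPI regulator Arfgap3 read 1850 and 1770 in Hypox pools and 7090 and 6340 after GH. It rose 3.71-fold (1.89 ± 0.12, adjusted p = 4.7e-06) and was among the 12 largest rises of genes with a symbol once the pancreas and muscle lists were set aside. The COPII coat genes Sec23b (1.55), Sec24d (1.06) and Sec13 (0.96) and the cargo receptors Tmed3 (1.18) and Tmed9 (1.14) rose, whereas the paralog Sec23a was at 0.11 and -0.10 on the 2 arrays and Mia3 was below 0 on both, neither passing the test. Without replicate 2 the 3 lists had 17, 10 and 19 genes called higher, without replicate 1 they had 8, 7 and 12, and with median centring 4, 3 and 8. Over all 26191 genes, 1921, 983 and 321 were called higher under these settings.

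**Figure D3:**
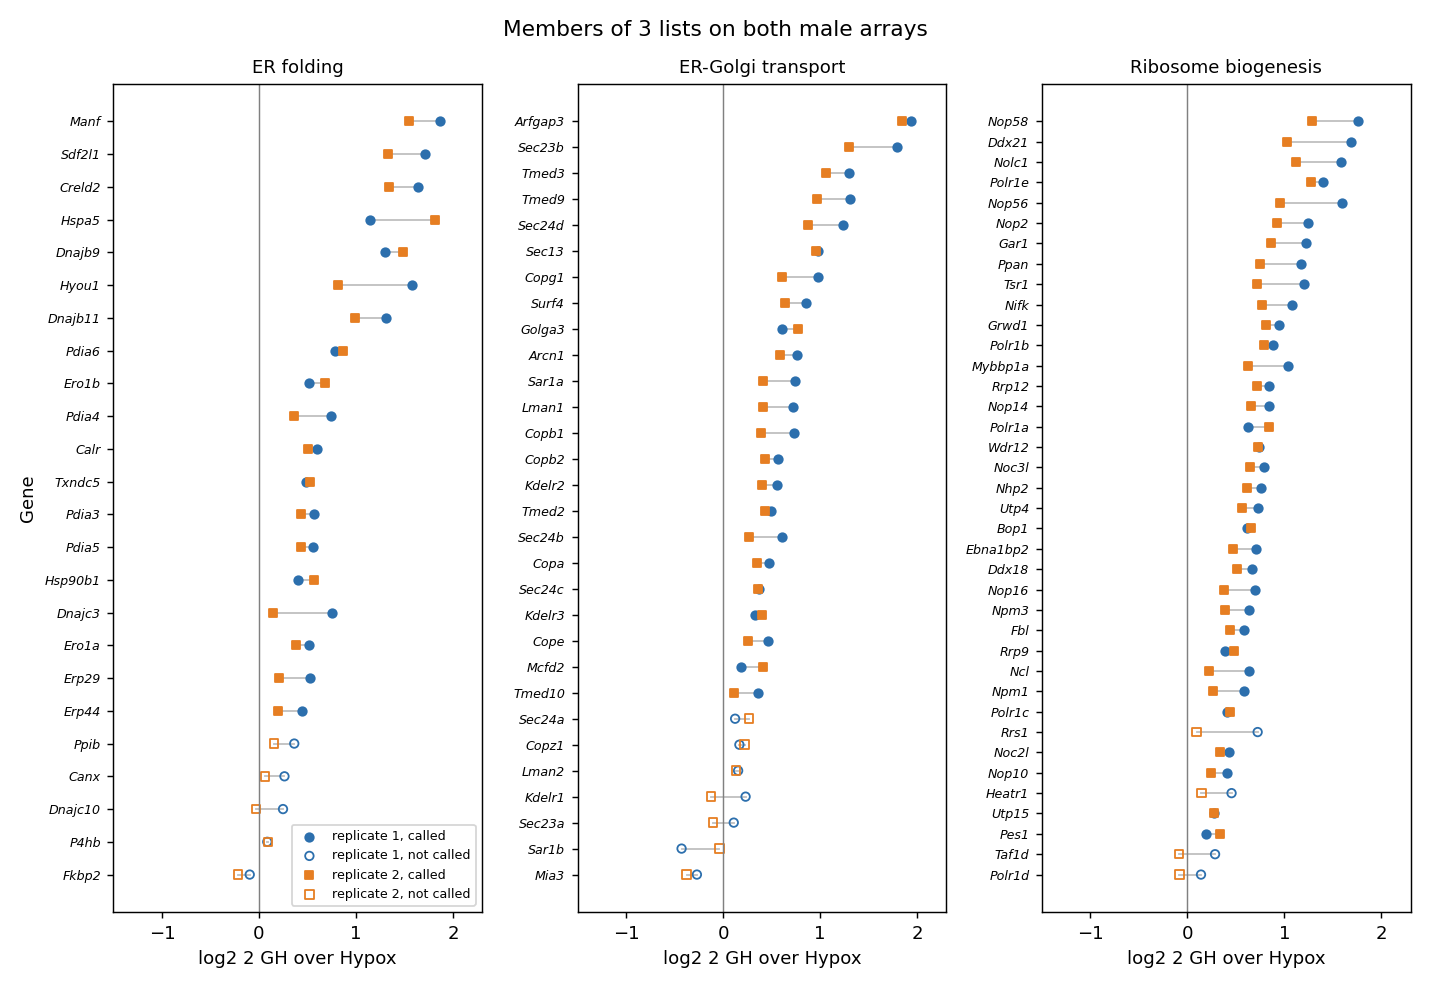
Log2 ratio of 2 GH over Hypox on replicate 1 (blue circles) and replicate 2 (orange squares) for each tested member of 3 gene lists; filled symbols mark genes that passed the test, open ones those that did not. Both arrays lie above 0 for 22 of 24 ER folding genes, with Manf, Arfgap3 and Nop58 at the top of their lists.

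The sensors and factors of the unfolded protein response gave a split picture. Of this list 46.7% were called, all higher, against 10.6% of all genes called higher. Ern1 (IRE1; 0.74), Eif2ak3 (PERK; 0.83), Atf6b (0.85), Wfs1 (1.13) and Xbp1 (0.90) rose, as did Atf4 (0.45) and Creb3l2 (0.44), which made 7 of 15. The stress targets Ddit3 (-0.09), Trib3 (-0.11) and Ppp1r15a (-0.13), which act downstream of PERK, did not pass, nor did Chac1 (-0.92, adjusted p = 0.070). Bhlha15 (MIST1) is a transcription factor of secretory cells that was placed on the exocrine pancreas list and was named here after its values were seen. It read 227 and 217 in Hypox pools and 2100 and 1870 after GH, with no overlap. The rise was 8.95-fold (3.16 ± 0.24, adjusted p = 7.8e-06). Its ratio was 3.21 on replicate 1 and 3.11 on replicate 2. On replicate 1 the exocrine pancreas list had a median of 0.26 with Pnlip at 0.92, and on replicate 2 the values were 3.33 and 4.57. Of the 31 genes of that list, 26 were above 0 on both arrays and 11 passed without replicate 2, and the part of pancreas RNA in the rise of Bhlha15 was not tested. A second, dim Bhlha15 probe (105 to 133) was at 0.09.

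Ribosome biogenesis was the list with the highest share of calls: 34 of 38 genes rose and none fell (median 0.67; 0.73 on replicate 1 and 0.62 on replicate 2). The share was 89.5%, against 10.6% of all genes called higher. Without replicate 2, 34 genes of the list passed, with 24 without replicate 1 and 11 with median centring. The snoRNP core gene Nop58 went from 5660 to 19100 and from 5270 to 12900. This was a 2.87-fold rise (1.52 ± 0.14, adjusted p = 2.4e-05) with treated pools above both Hypox pools. The helicase Ddx21 (1.36), the nucleolar chaperone Nolc1 (1.35), the RNA polymerase I subunit Polr1e (1.34), Nop56 (1.27), the rRNA methyltransferase Nop2 (1.08) and Gar1 (1.04) followed. Heatr1, Rrs1, Taf1d and Polr1d did not pass. The signal of the CTP synthase gene Ctps, needed for RNA synthesis, went from 876 to 4250 and from 871 to 2850 (2.00 ± 0.26, adjusted p = 0.00019).

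**Figure D4:**
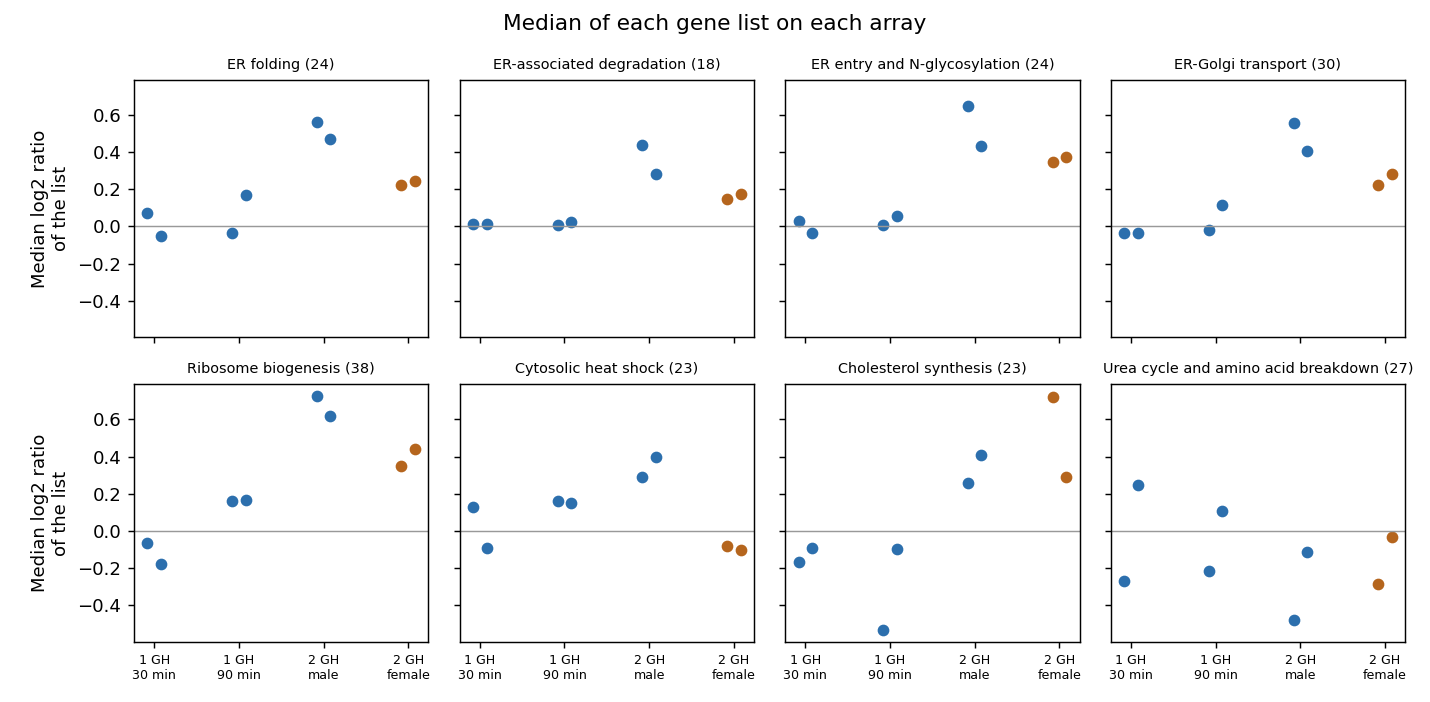
Median log2 ratio over Hypox of 8 gene lists on each array (1 point per array; number of genes tested in parentheses) for males 30 and 90 min after 1 injection, males after 2 injections and, in brown, females after 2 injections. The ER lists and ribosome biogenesis are highest on the 2 male arrays after 2 injections.

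In the list of ATF4 targets and amino acid genes 9 of 23 rose and 2 fell (median 0.21), 47.8% called against 19.3% of all genes. The asparagine synthetase Asns (1.33 ± 0.18, adjusted p = 0.00028) and the tRNA synthetases Yars (1.11), Iars (0.89), Aars (0.82) and Cars (0.49) were among those that rose. The hormone gene Fgf21 (-0.91) and the cystathionine lyase Cth (-0.78) fell. Without replicate 1, 5 genes of this list passed as higher and 1 as lower, without replicate 2 the counts were 5 and 0, and with median centring 2 and 0. Of 23 cytosolic heat shock genes 14 rose and none fell (median 0.34), with Hsph1 (0.99), Hspa4 (0.95), Bag3 (0.93), Chordc1 (0.86) and Hsp90aa1 (0.85) the highest. The share called was 60.9%, against 10.6% of all genes called higher. This list was sensitive to the arrays: 10 passed without replicate 2, 2 without replicate 1 and 1 with median centring.

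With the pancreas and muscle lists set aside, the largest rise of a gene with a symbol was that of Serpina3k, a secreted protease inhibitor of a family with near-identical copies that the probe may not tell apart. It went from 8880 to 67300 and from 7270 to 87300 (3.25 ± 0.29, adjusted p = 2.2e-05). Nrep (2.95), the inhibitor Serpina9 (2.77), the pleckstrin homology-like Phlda1 (2.55), the EGF receptor Egfr (2.17), the B cell chemokine Cxcl13 (2.09) and the carboxylesterase Ces2b (2.05) followed Socs2 and Cish. The lowest of these on either array was Cxcl13 on replicate 1 (1.68). Egfr had 3 further probes, at 2.24, 1.28 and 1.10. The call of Cxcl13 was lost without replicate 1 (adjusted p = 0.087) and also without replicate 2 (0.16). Those of Phlda1 (0.11) and Ces2b (0.067) were lost without replicate 1 alone.

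The largest falls were led by the phosphodiesterase Gdpd3, from 1380 to 157 and from 1290 to 185. Its change was -2.97 ± 0.64 (adjusted p = 0.0058; 0.11 without replicate 1 and 0.067 without replicate 2). The keratin gene Krt23 went from 10100 to 1990 and from 10700 to 1740, with no overlap (-2.48 ± 0.26, adjusted p = 4.4e-05). Lrtm1 (-2.10), the vitamin C transporter Slc23a2 (-2.05), Ccdc68 (-1.92), the cadherin Celsr1 (-1.83), the uridine phosphorylase Upp2 (-1.75), Zbed5 (-1.70), the arginine deiminase Padi4 (-1.60), the transporter Slc17a8 (-1.56) and the sulfotransferase Sult2a2 (-1.55) fell as well. Padi4 was lost without either array (adjusted p = 0.17 without replicate 1 and 0.30 without replicate 2), and its second probe was at -0.22. Sult2a2, of a family of close copies, was lost likewise (0.33 and 0.12). Lrtm1 (0.085) and Slc17a8 (0.15) were lost without replicate 1 alone.

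In the metabolic lists described next, between 18.2% (PPARα) and 27.8% (bile acid genes) of genes were called, against 19.3% of all genes. The lipogenesis list, given further below, had 8.33% called. Of 27 genes of the urea cycle and amino acid breakdown 7 fell and none rose (median -0.27, against -0.01 over all genes), with the proline dehydrogenase Prodh (-0.52), Aass (-0.50), a lysine-degrading enzyme, and the transaminase Gpt (-0.47) among them. With replicate 1 or replicate 2 left out, 1 gene of the list passed each time. Of 33 genes of PPARα and fatty acid oxidation 5 fell, such as the fatty acid carrier Cd36 (-0.70) and Cpt1a (-0.51), and Acsl1 rose (0.83). In glucose metabolism Txnip (-0.92), the glycogen synthase Gys2 (-0.88), Sesn3 (-0.61) and Foxo1 (-0.50) fell. Cholesterol synthesis had 6 of 23 genes higher (median 0.42), including Mvd (1.09) and Cyp51 (0.80), while Sqle was at 1.57 and 2.22 without passing (adjusted p = 0.073). Of 18 bile acid genes the sterol hydroxylase Cyp8b1 (-1.17), Akr1d1 (-0.53) and Amacr (-0.50) fell and the bile acid carrier Slc10a1 (0.68) and Cyp7b1 (0.64) rose. These lists rest on both arrays: without replicate 1, 0 genes of the PPARα list, 2 of the glucose list, 1 of the cholesterol list and 1 of the bile acid list passed.

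Other lists lay on both sides of the 19.3% called over all genes, from 38.5% in the glucocorticoid and metallothionein list to none in the cell cycle list. The glucocorticoid target Fkbp5 rose (710 and 634 against 1890 and 1770; 1.45 ± 0.14, adjusted p = 3.0e-05) and Tsc22d3 fell (-0.63), in a list with 2 of 13 higher and 3 lower. The metallothioneins Mt1 (-1.46 and 0.30) and Mt2 (-1.97 and 0.23) went opposite ways on the arrays. Of 34 immediate-early genes Phlda1 rose and Klf10 (-0.93), Btg1 and Mcl1 fell. Gadd45g (1.79, adjusted p = 0.050) and Myc (1.56, adjusted p = 0.060) missed the threshold. The clock list had 2 of 19 lower, among them the orphan receptor Rora (-0.52). No gene of 33 in the cell cycle list or of 12 thyroid hormone targets passed, and of 24 lipogenesis genes 1 rose and 1, the citrate lyase Acly (-0.42), fell. In the acute phase list Hamp2 fell (-1.31, adjusted p = 0.021) and none of 25 rose. Of 32 secreted liver proteins Serpina3k and Apoa5 (0.73) rose and Serpina6 (-0.67) and F7 fell. The median of that list was -0.38 on replicate 1, with the treated pool in green, and 0.48 on replicate 2, with it in red. With the same dyes it was -0.124 and 0.351 at 30 min and -0.386 and 0.315 at 90 min after 1 injection. In females after 2 injections it was -0.264 and 0.248. The part of the dyes in these values was not tested.

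Genes that differ between male and female liver did not move as 1 block. Of the male-biased list 22.7% were called, near the 19.3% of all genes, and of the female-biased list 34.5%. Of 22 male-biased genes tested, Hsd3b5 (1.24 ± 0.13, adjusted p = 5.3e-05), Mup5 and Cyp7b1 rose and Gna14 (-1.5) and Elovl3 (-0.42) fell. The urinary protein genes Mup1 (-0.36 and 3.41) and Mup5 (0.09 and 2.68), of a large family of near-identical genes, were high on replicate 2 alone, and Mup5 was at an adjusted p of 0.81 without it. Of 29 female-biased genes 7 fell, led by Sult2a2, Abcd2 (-1.13) and the proton pump subunit Atp6v0d2 (-0.84), and 3 rose, among them the cytokine receptor Lifr (1.01) and Fmo2 (0.82). Without replicate 1 the counts were 0 lower and 1 higher, without replicate 2 they were 2 and 2, and with median centring no gene of the list passed. Sham-operated mice of both sexes, on arrays that share no pool with these, gave a wider view. There 2297 genes differed between the sexes (8.77%), 5.03% higher in males and 3.74% higher in females. Of 979 genes that were higher in sham females, 287 fell after 2 GH injections in Hypox males (29.3%, against 8.7% of all genes) and 85 rose (8.68%). Of 1318 genes higher in sham males, 249 rose (18.9%, against 10.6%) and 100 fell (7.59%). Without replicate 2, 133 of the former fell and 201 of the latter rose. Both sets of calls came from 1 fit with a shared spread per gene, so the share of all genes is not an independent baseline. Muscle RNA moved on the sham arrays, with muscle list medians of 1.41 and 2.40 (male over female) and 3 of 27 genes called higher in males. Its part in these counts was not tested.

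A single injection gave a different profile at either time, with 656 genes called after 30 min (2.5%; 1.78% higher and 0.722% lower) and 1304 after 90 min (4.98%; 3.4% higher and 1.58% lower). The single-injection arrays used pools of 3 or 4 mice and the same group of untreated males. They lay on other slides and were scanned on another day, so slide and day cannot be told apart from the number of injections. Nor can the time since the first injection, which was over 4 h in males given 2 injections and 30 or 90 min in those given 1. Muscle RNA moved here too, with muscle list medians on replicates 1 and 2 of 2.91 and -0.05 at 30 min and 1.94 and 0.03 at 90 min, and its part in the differences was not tested. At 30 and 90 min after 1 injection Socs2 was at 2.22 and 3.33, Cish at 2.19 and 4.17 and Phlda1 at 3.02 and 4.15, and none of the 3 differences between 2 injections and 90 min passed (-0.11, -1.06 and -1.59, adjusted p = 0.95, 0.61 and 0.21). Igfals was at -0.06 and 0.81 and Igf1 at -0.12 and 0.47. Igfals was higher after 2 injections than at 90 min (difference 0.86, adjusted p = 0.0045), whereas for Igf1 the difference of 0.75 missed the threshold (adjusted p = 0.072). Serpina3k (-0.54 and 2.35) and Nrep (0.33 and 2.97) had differences of 0.91 and -0.03 between 2 injections and 90 min, which did not pass (adjusted p = 0.23 and 0.98).

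**Figure D5:**
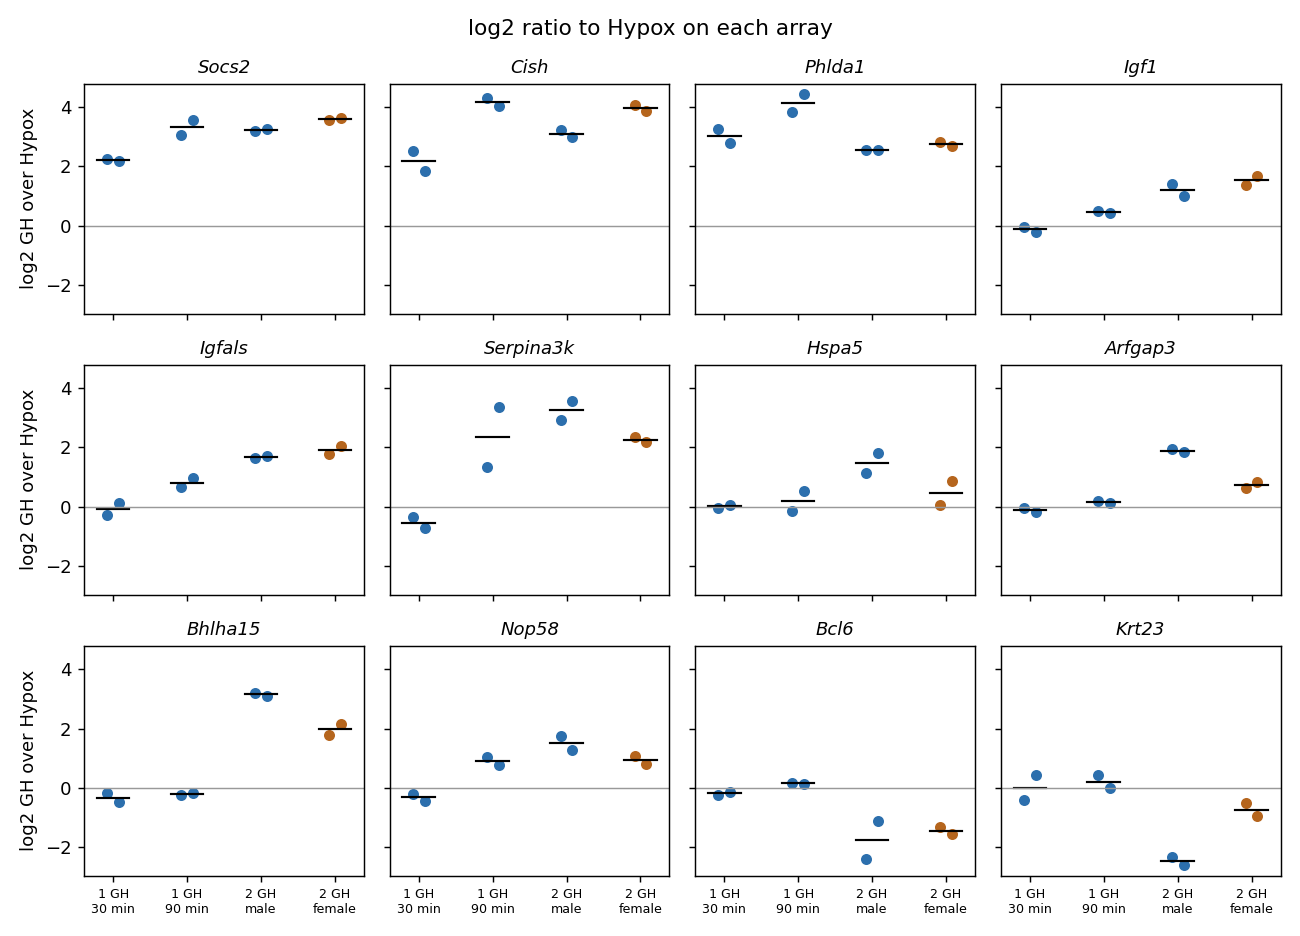
Log2 ratio over Hypox of 12 genes on each array (points) with the mean of the 2 arrays (black line), for males 30 and 90 min after 1 injection and after 2 injections (blue) and for females after 2 injections (brown). Socs2, Cish and Phlda1 are raised at every time, Igf1 and Igfals are higher at the later times, and Hspa5, Arfgap3, Bhlha15, Bcl6 and Krt23 stand apart from 0 mainly after 2 injections.

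The lists of secretory genes had medians near 0 after a single injection, although in the ER-Golgi list 1 gene was called higher at each time. The ER folding list had medians of 0.01 at 30 min and 0.05 at 90 min, with no member called at either time, and 8 members were higher after 2 injections than at 90 min. Over all genes 1991 differed from 90 min (7.6%), 1129 higher (4.31%) and 862 lower (3.29%), and 3823 from 30 min (14.6%), 7.61% higher and 6.99% lower. Hspa5 was at 0.01 and 0.19 after 1 injection (difference to 90 min 1.29, adjusted p = 0.018). Arfgap3 was at -0.11 and 0.16 (difference 1.73, adjusted p = 0.00065) and Bhlha15 at -0.34 and -0.20 (difference 3.36, adjusted p = 0.00065). Of the ER-Golgi, ER entry and ER degradation lists 15 of 30, 12 of 24 and 10 of 18 were higher than at 90 min. Xbp1 was already at 1.37 at 90 min and its difference of -0.48 did not pass (adjusted p = 0.25). For ribosome biogenesis 10 of 38 genes were called at 90 min (median 0.16), and 20 were higher after 2 injections than at 90 min while 1, Rrs1, was lower. Bcl6 was at -0.19 and 0.15 after 1 injection and differed at both times (adjusted p = 0.019 and 0.012).

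The same lists had also been measured in untreated Hypox males against sham-operated males, a comparison in which 37.4% of genes were called (18.8% higher and 18.6% lower) and whose Hypox pools come from the control group used here, so that the values stand side by side only. There 18 of 24 ER folding genes were lower in Hypox males (median -0.97), as were 19 of 23 heat shock genes (median -1.31), 16 of 24 ER entry genes (median -0.41) and 13 of 30 ER-Golgi genes (median -0.23). Of 38 ribosome biogenesis genes 10 were lower and 6 higher (median -0.01). Muscle RNA moved on these arrays too, with muscle list medians of -1.54 and -2.43 and 12 of 27 genes called lower. Its part in these values was not tested.

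In females, 2 injections at the same interval changed 2208 genes (8.43%; 4.4% higher and 4.03% lower), and 517 genes differed between the sexes (1.97%), 1.11% with the higher and 0.867% with the lower ratio in males. The female pools held 2 or 3 mice, and their arrays lay on other slides and were scanned on another day. Igf1 (1.53), Igfals (1.92), Socs2 (3.60), Cish (3.98) and Bcl6 (-1.45) had differences between the sexes of -0.32, -0.25, -0.38, -0.87 and -0.30 (males minus females), which did not pass (adjusted p = 0.56, 0.43, 0.82, 0.73 and 0.78). The ER folding list had a median of 0.22 in females with 2 members called, against 0.50 and 19 in males, and for none of its 24 genes did the difference between the sexes pass the test. Of the ER-Golgi list Arfgap3 (0.73 in females, difference 1.16, adjusted p = 0.013), Sec13 and Sar1a had the higher ratio in males. Hspa5 was at 0.06 and 0.85 on the female arrays (difference 1.02, adjusted p = 0.077), and Bhlha15 at 1.97 (difference 1.19, adjusted p = 0.075). Of the heat shock list 4 genes fell and 2 rose in females, and Hsph1 (-0.20), Dnaja1 (-0.35) and Chordc1 (0.07) had the higher ratio in males (adjusted p = 0.045, 0.021 and 0.044).

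Some transcription factors and falling genes were more clearly separated by sex. Tox was at 0.15 and 0.03 on the female arrays, against -1.21 and -1.25 in males, and the difference of -1.32 passed (adjusted p = 0.016). Hnf4a had the higher ratio in males (adjusted p = 0.046). Krt23 had the lower ratio in males (-0.74 in females, adjusted p = 0.035). Gdpd3 was at 1.27 in females without passing there (adjusted p = 0.28), and its difference of -4.23 passed (adjusted p = 0.038). Muscle RNA moved with the arrays here: the skeletal muscle list had medians of -2.98 and -2.85 on the female arrays and -0.03 and 2.42 on the male ones. The genes with the largest differences toward males, such as Pln (3.12) and Asb14 (2.80), were below 0 on both female arrays and high on male replicate 2 alone, and the part of muscle RNA in those differences was not tested. Syt12, a synaptotagmin, was above 0 on both male arrays (1.74 and 0.98) and below 0 on both female ones (-0.45 and -0.58; adjusted p = 0.015).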

How the data were processed

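Liver RNA pools were compared on two-colour Agilent whole-genome arrays. Per the file headers, the deposited scanner files hold mean signal and background intensity of each spot in both channels, a log10 ratio of processed signals, and quality flags. The deposited value table holds log2 ratios, which the labels call normalized. Its columns equalled log2 forms of the scanner ratios within 0.005 (column medians near 0), with the replicates of this comparison exchanged, so replicate numbers follow the scanner files and the direction follows the labelled dyes. The build the authors' array design used is not given in the sources used here.

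Intensities of 45018 spots were corrected with limma's normexp (offset 50) and loess-normalized per array. The 1639 control spots had no weight in the loess and were dropped afterwards, as were outlier spots. Spots of a probe were averaged, and probes were named through RefSeq by accession (22072 of 41174 matched). The brightest probe stood for each of 33767 gene names. The test covered 26191 genes whose probe passed the scanner's background flag in either channel for both replicates of some comparison. Signals shown are per channel after quantile scaling of average intensities and carry dye bias.

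Log2 ratios of 22 arrays were fitted with limma 3.58.1 (R 4.3.3; lmFit, eBayes) with 11 comparison terms and a dye term, which left 10 residual degrees of freedom (prior 2.5). A gene was called at a Benjamini-Hochberg adjusted p under 0.05 with both arrays of 1 sign. Pools that recur were treated as independent. On simulated arrays with the same 26191 genes, 100 were changed by 1 log2 unit and 100 by 2. Of these, 95% and 99% were recovered in this comparison, with 13 false calls. The simulated noise was independent between arrays, with no shared mice, dye effect or RNA of other tissues. The 13 false calls thus give no error rate for the genes called here. The number of arrays limits the precision: of 2 per comparison, 73.6% to 75.7% of spots were well above background.

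The members and gene lists were chosen with earlier results of these data known. Named genes were Igf1, Igfals, Hspa5, Cish, Socs2, Bcl6 and Cux2, the 12 largest rises and falls called and above background (pancreas and muscle lists left out), up to 8 members of each pathway list, and the 6 largest differences each way between injections, times and sexes. Some genes that the rule names are not reported here. Promoter letters came from RefSeq (GRCm38.p6). Alternatives covered each array left out, the background correction, normalization, filter, dye term, model and probe choice.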

Additional observations from a re-analysis of the deposited data

Results flagged for a closer look

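Ratios after 2 injections in males differed by test from those of another time or sex for the genes given here, each as the difference of log2 ratios (limma, Benjamini-Hochberg adjusted p under 0.05). Slide and scan day cannot be told apart from these contrasts.

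Against 90 min after 1 injection, 1991 genes differed. The largest differences below 0 were those of Padi4 (-2.77), Krt23 (-2.68), Upp2 (-2.63), Osbpl3 (-1.96), Unc93a (-1.91) and Bcl6 (-1.90). Those above 0 were Gm4788 (3.15), Serpina9 (2.50), Sppl2a (2.21), the sterol sensor partner Insig1 (2.12), the dopa decarboxylase Ddc (1.90) and Arfgap3 (1.73). Gm4788 and Insig1 were not called after 2 injections alone, and their differences also hold the values of -2.42 and -1.18 at 90 min.

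Against 30 min after 1 injection, 3823 genes differed. Below 0 were Padi4 (-3.62), Lrtm1 (-3.07), Krt23 (-2.49), Slc23a2 (-2.33), Fam171b (-2.21) and the retinoic acid hydroxylase Cyp26b1 (-2.17). Above 0 were Chil4 (4.11), Serpina3k (3.79), Tff2 (3.60), Chil3 (3.53), Gm4788 (3.46) and Spink4 (3.49). Chil4, Tff2, Chil3 and Spink4, genes of mucous surfaces and macrophages, had not passed after 2 injections, and were at -3.27, -2.48, -2.90 and -3.12 at 30 min. Of 6 gastric and mucous surface genes tested, 3 were lower at 30 min and none passed after 2 injections.

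Against females after 2 injections, 517 genes differed. Below 0 were Gdpd3 (-4.23), Lrtm1 (-2.90), Rgs8 (-1.95), Lrit1 (-1.87), Krt23 (-1.75) and Celsr1 (-1.49). Above 0 were Pln (3.12), Asb14 (2.80), Dusp26 (2.32), Syt12 (1.87) and the muscle carnitine transferase Cpt1b (1.86). Pln, Asb14, Dusp26 and Cpt1b were not called after 2 injections in males.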

How the results depend on the processing

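Of 5049 genes called, the count without 1 array ranged from 1609 to 2864. The 2 arrays fitted alone gave 1033 and median centring 454. Differences from 90 min (1991) came to 661 to 1086 without 1 array, 1325 with no dye term, 1303 with the scanner's log ratios and 3 with median centring. Differences from 30 min (3823) came to 2027 to 2137 and, with median centring, 106. Differences from females (517) came to 101 to 131 without 1 array, 342 with the 12 GH arrays alone, 260 with no dye term, 997 with no background correction, 1410 with the loop model, 1055 with a dye term per scan day and 178 with the scanner's ratios (70 higher and 108 lower, against 290 and 227). Median centring gave 0 called there with limma, with 1225 genes at an unadjusted p under 0.05. List members called (214) came to 93 without replicate 1 and to 104 with the 2 arrays alone, 149 without replicate 2 and 52 with median centring. Fewer arrays leave less to estimate the spread from; the cause of the other shifts was not tested.

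Of 144 named genes called, 49 were called under each of 16 alternatives, Igfals, Hspa5, Socs2, Arfgap3 and Krt23 among them, and none reversed. Under the alternatives not named, these 5 counts stayed within 1.5 times of those reported. Deviations of replicate 1 from the mean of its comparison correlated across genes at -0.49 to 0.72 over 55 pairs of comparisons (median 0.1). Replicate numbers thus marked no shift common to all comparisons, though some pairs shared deviations. The fit with a replicate block called 5235 genes. The dye term per scan day and the run without pancreas and muscle genes (5037 called) were chosen after seeing the data.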
